A study of Homo sapiens with 16 samples.

Results

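The genes described are the axon guidance ligands and receptors of 4 classical systems: semaphorins and plexins, ephrins and EPH receptors, slits and ROBO receptors, and netrins and UNC5 receptors. Members were found by symbol, and a gene was kept where its mean over all 16 libraries was at least 0.5 CPM (a gene's counts scaled to a common library size). Of 58243 genes in the table, 66 carried such a symbol and 54 reached that level. They were 18 of 20 semaphorins, 9 of 9 plexins, 9 of 14 EPH receptors, 8 of 8 ephrins, 2 of 3 slits, 2 of 4 ROBO receptors, 3 of 4 netrins and 3 of 4 UNC5 receptors. EPHA6 lay just inside the threshold with a mean of 0.764 CPM, and ROBO2 just outside it with 0.491 CPM. The other genes left out were EPHA1, EPHA8, EPHA10, EPHB1, EPHB6, ROBO4, SLIT1, SEMA3D, SEMA4A, NTN3 and UNC5A. All 54 members also passed the filter on low counts and were among the 16647 genes tested.

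Axon guidance molecules steer growing axons and migrating cells by attraction or repulsion, largely through the actin cytoskeleton. Semaphorins are secreted, transmembrane or lipid-anchored ligands that bind plexins, and the secreted class often needs a neuropilin as co-receptor. Ephrins are held on the cell surface and bind EPH receptor tyrosine kinases on the neighbouring cell, so that signals can run in both directions. Slits are secreted proteins that repel through ROBO receptors, and netrins are laminin-related proteins that attract through DCC and repel through UNC5 receptors. In glioma, several of these genes are known for roles in cell migration and invasion.

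The cells were U-251 MG, a human glioblastoma line kept in serum-containing medium, and poly(A)-selected RNA was sequenced. Treatment began 24 h after seeding and lasted 48 h, with simvastatin at 0.06 µM, irinotecan at 0.6 µM, the combination of both at these doses, or DMSO, the vehicle. Each group held 4 libraries of 1 line, and whether they came from separate cultures is not stated, so the spread between them may be technical. Simvastatin inhibits HMG-CoA reductase, the rate-limiting enzyme of cholesterol synthesis, and irinotecan is converted in cells to an inhibitor of topoisomerase I. Library totals were 24159673 to 32318888 counts. Levels are CPM with TMM-scaled library sizes, and a gene was called when its Benjamini-Hochberg adjusted p from edgeR's quasi-likelihood test was under 0.05 over all genes tested. In these bulk cultures, fewer cells of a kind and less RNA per cell cannot be told apart.

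In DMSO cultures, the most abundant members per exon length were an EPH receptor pair, an ephrin, a plexin and a pair of secreted semaphorins. EPHA2, a receptor for the ephrin-A ligands, was highest at 87.5 ± 3.49 CPM per kb of exon (SD, n = 4). EPHA3, another ephrin-A receptor, followed at 47.4 ± 3.74, and EFNB2, a transmembrane ephrin that binds EPHB4, at 37.0 ± 1.49 CPM per kb. PLXNB2, a plexin for class 4 semaphorins, stood at 32.6 ± 0.579, and SEMA3C and SEMA3A, both secreted, at 28.2 ± 2.23 and 23.0 ± 0.605 CPM per kb. The next member, EPHB4, had 20.7 ± 0.95 CPM per kb, and its highest library (21.2) lay below the lowest of SEMA3A (22.2). Per coding transcript length the order turned (30.7 for EPHB4 and 26.2 for SEMA3A). SEMA4B, at 14.3 CPM per kb of exon, then also reached 26.2. NTN1 and NTN4 led the netrins at 13.3 ± 0.415 and 12.5 ± 0.517 CPM per kb, and their order turned when coding transcript length was used (14.3 and 14.4). UNC5C led its family at 8.71 ± 0.581 and ROBO1 at 8.04 ± 0.478 CPM per kb, and these levels overlapped. SLIT2 and SLIT3 were lower, at 2.57 ± 0.219 and 1.99 ± 0.107 CPM per kb, and their order also turned with coding length (4.87 and 5.81). The lowest members were EPHA6 and EPHA7, at 0.117 ± 0.0215 and 0.113 ± 0.0211 CPM per kb.

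**Figure D1:**
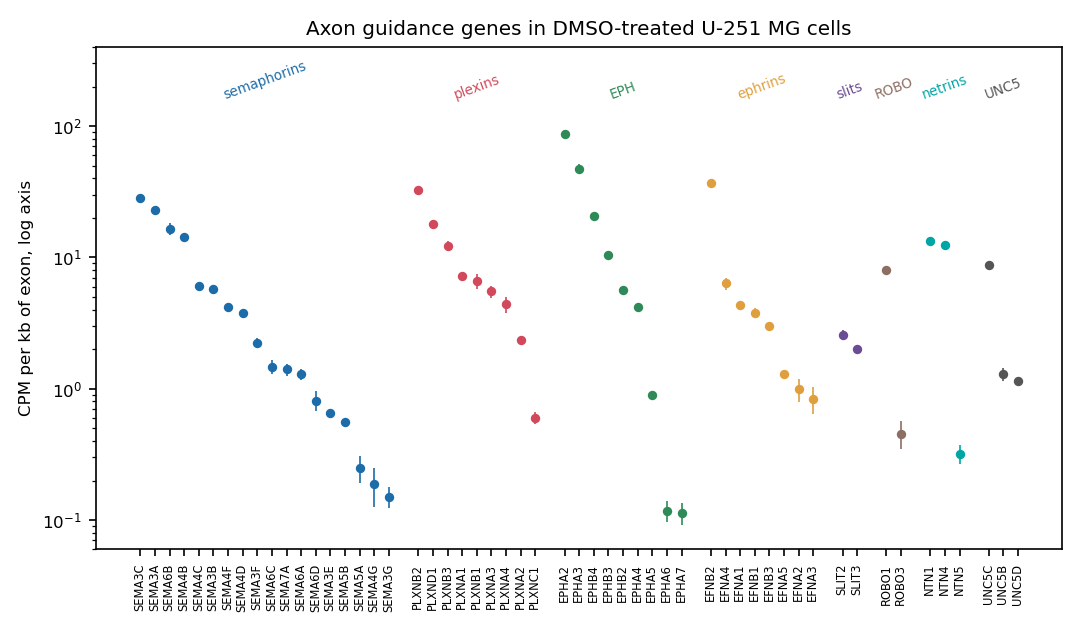
Level of each member in the DMSO cultures, in CPM per kb of exon on a log axis, by gene family; points are means of 4 libraries and bars their SD. EPHA2, at 87.5 CPM per kb, stands above every other member, and EPHA6 and EPHA7 lie lowest, near 0.11.

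Irinotecan changed most of these genes, in both directions. With irinotecan alone, 17 of the 54 members rose and 15 fell relative to DMSO, 59.3% of them, while 24.1% of all genes tested were called (12.4% higher and 11.7% lower). With the combination, 14 rose and 17 fell relative to DMSO, 57.4% of members against 28.1% of all genes (15.1% higher and 13% lower). With simvastatin alone, 1 rose and 5 fell, 11.1% of members against 6% of all genes (3.89% higher and 2.11% lower). The members' median level was 25.0 CPM and that of all genes 17.2 CPM, and more abundant genes were called more often. By band of level, irinotecan called 5 of 10 members and 14% of genes at 0.5 to 5 CPM, 14 of 25 and 27.8% at 5 to 50 CPM, and 13 of 19 and 34.1% at 50 CPM or more. In the same bands simvastatin called 1 of 10 members and 1.54% of genes, 1 of 25 and 5.94%, and 4 of 19 and 11.8%. The bands are wide, and the part of level in the members' shares was not tested. The libraries of the compared groups did not overlap for 31 members under irinotecan (23.4% of all genes), 24 under the combination (26.2%) and 5 under simvastatin (10%). The median log2 fold change over the members was 0.05 for irinotecan, 0.00 for the combination and -0.06 for simvastatin, so the calls fell on both sides of no change. Many changes were small: with a minimum log2 fold change of 0.25, irinotecan called 21 members, against 13.4% of all genes.

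**Figure D2:**
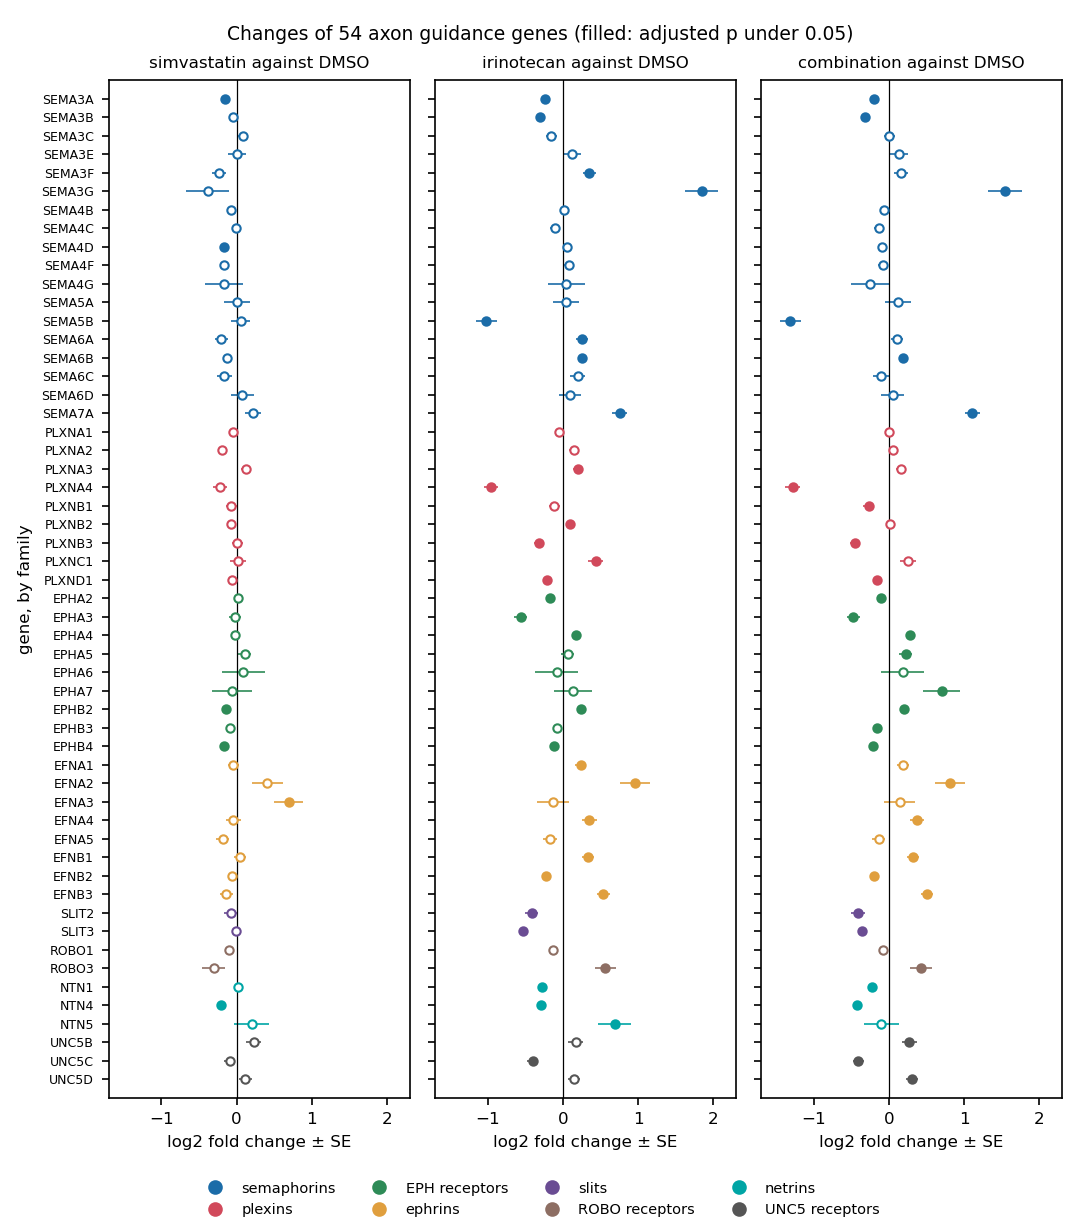
Log2 fold change of each member against DMSO for simvastatin, irinotecan and the combination, by family, with standard errors; filled points were called. SEMA3G lies highest and SEMA5B and PLXNA4 lowest under irinotecan and the combination, and under simvastatin EFNA3 is the 1 filled point right of 0.

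A few members with large changes in opposite directions are shown with the 250 bases before their RefSeq transcription start (GRCh38.p14), so that the promoters of genes that rose and of genes that fell can be set side by side. SEMA3G and SEMA7A rose, and SEMA5B, PLXNA4 and SLIT3 fell. Each sequence runs 5′ to 3′ on the gene's own strand, which is the minus strand in all of them, and capitals mark a match to a searched motif on either strand. The windows are chr3:52445104-52445353 for SEMA3G, chr15:74433959-74434208 for SEMA7A, chr3:123028606-123028855 for SEMA5B, chr7:132576471-132576720 for PLXNA4 and chr5:169301140-169301389 for SLIT3.
SEMA3G: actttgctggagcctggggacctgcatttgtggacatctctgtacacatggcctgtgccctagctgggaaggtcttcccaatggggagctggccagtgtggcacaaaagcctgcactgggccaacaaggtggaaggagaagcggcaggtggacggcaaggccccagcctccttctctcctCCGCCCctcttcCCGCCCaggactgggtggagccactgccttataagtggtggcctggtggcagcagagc
SEMA7A: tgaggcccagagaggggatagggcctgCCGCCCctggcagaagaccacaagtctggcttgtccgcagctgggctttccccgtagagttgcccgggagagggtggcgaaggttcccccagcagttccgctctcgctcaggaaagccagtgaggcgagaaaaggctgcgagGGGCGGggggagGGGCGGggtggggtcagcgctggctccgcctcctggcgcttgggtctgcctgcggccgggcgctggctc
SEMA5B: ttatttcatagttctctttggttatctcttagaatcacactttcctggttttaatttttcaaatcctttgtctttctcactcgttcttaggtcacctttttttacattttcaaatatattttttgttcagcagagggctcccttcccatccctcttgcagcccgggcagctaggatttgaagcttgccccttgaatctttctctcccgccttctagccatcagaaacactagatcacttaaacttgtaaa
PLXNA4: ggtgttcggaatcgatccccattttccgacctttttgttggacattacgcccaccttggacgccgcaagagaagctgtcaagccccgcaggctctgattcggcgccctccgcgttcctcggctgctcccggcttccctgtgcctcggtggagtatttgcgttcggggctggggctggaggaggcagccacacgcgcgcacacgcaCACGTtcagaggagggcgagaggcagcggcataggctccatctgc
SLIT3: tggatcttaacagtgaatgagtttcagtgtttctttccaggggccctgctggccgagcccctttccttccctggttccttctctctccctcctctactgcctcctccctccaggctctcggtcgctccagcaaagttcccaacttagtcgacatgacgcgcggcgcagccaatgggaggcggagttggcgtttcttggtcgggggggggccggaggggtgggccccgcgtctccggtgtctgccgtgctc
The start for PLXNA4 lies inside its GENCODE span, so the annotations differ on where the gene starts, and which starts the cells used was not measured. The windows of SEMA3G and SEMA7A hold GC boxes (GGGCGG or its reverse complement). That of PLXNA4 holds the core of a hypoxia response element (ACGTG), and those of SEMA5B and SLIT3 hold no match. This difference does not extend to the other members. GC boxes were also found before genes that fell with irinotecan, among them SLIT2, PLXNB3, PLXND1, EPHA2, EPHB4 and EFNB2. GC content was 39.2% for SEMA5B, against 62.0% to 70.0% for the others. Promoter windows were matched for 47 of the 54 members. Of these, 35 held a GC box, against 42.3% of 27305 promoters; 6 held ACGTG, against 18.7%; 2 held the TEAD motif GGAATG, against 11.9%; 1 held the AP-1 motif TGANTCA, against 6.6%; and 2 held the cyclic AMP response element TGACGTCA, against 1.77%. These are letter matches and not measured binding.

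The counts by family and by partner list below stand beside those of all genes tested. Of these, 12.4% rose and 11.7% fell with irinotecan, and 15.1% rose and 13% fell with the combination. Among the semaphorins, 5 of 18 rose and 3 fell with irinotecan, and 3 rose and 3 fell with the combination. SEMA3G, a secreted semaphorin that signals through neuropilin-2 (chr3:52433053-52445085, minus strand), had 2.17, 2.75, 3.3 and 2.63 CPM with irinotecan and 2.47, 2.25, 2.13 and 1.91 CPM with the combination. It had 0.984, 0.454, 0.482 and 0.363 CPM with simvastatin and 0.648, 0.787, 0.947 and 0.646 CPM with DMSO. Every library with irinotecan, alone or combined, lay above every library without it. The log2 fold change against DMSO was 1.85 ± 0.22 for irinotecan (SE, adjusted p = 1.18e-07) and 1.54 ± 0.23 for the combination (adjusted p = 4.36e-06). The gene was rare, with 9 to 95 counts per library. SEMA3G is also known from endothelium, and the summed level of 8 endothelial markers was 5.9 to 7.07 CPM with irinotecan, 6.56 to 7.28 CPM with the combination, 4.24 to 4.95 CPM with simvastatin and 4.29 to 5.04 CPM with DMSO. Of these markers KDR and VWF rose with irinotecan, and the defining genes PECAM1, CDH5, TEK, TIE1 and ERG were too low to be tested. TIE1 and CDH5 averaged 0.252 and 0.232 CPM with irinotecan and 0.00807 and 0.0592 CPM with DMSO, and these libraries did not overlap. PECAM1, TEK and ERG averaged 0.0506, 0.103 and 0.0812 CPM with irinotecan and 0.0278, 0.0548 and 0.075 CPM with DMSO. CLDN5, another of the 8 markers, averaged 0.279 CPM with irinotecan, 0.151 CPM with the combination and 0.444 CPM with DMSO. It was lower with the combination (log2 fold change -1.50, adjusted p = 0.00994) and not called with irinotecan (adjusted p = 0.234). The part of these markers in the SEMA3G result was not tested.

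SEMA7A is a lipid-anchored semaphorin that binds plexin C1 and beta-1 integrins (chr15:74409289-74433958, minus strand). It had 9.99, 8.31, 9.9 and 7.89 CPM with irinotecan, 12.4, 11.3, 11.3 and 11.0 CPM with the combination, 5.83, 5.69, 6.92 and 6.29 CPM with simvastatin and 6.02, 4.64, 5.53 and 5.13 CPM with DMSO. The combination libraries were highest, the irinotecan libraries came next, and both groups lay clear of DMSO. It rose by a log2 fold change of 0.76 ± 0.10 with irinotecan (adjusted p = 7.99e-07) and 1.11 ± 0.10 with the combination (adjusted p = 4.16e-10). Against irinotecan alone, the combination was higher by 0.35 ± 0.09 (adjusted p = 0.0183). This last call was lost without irinotecan replicate 2 or 4 or combination replicate 1 (adjusted p = 0.0615 to 0.0738).

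SEMA5B, a transmembrane semaphorin with thrombospondin repeats (chr3:122909082-123028605, minus strand), moved the other way. It had 2.32, 1.78, 2.78 and 2.59 CPM with irinotecan, 1.79, 1.65, 1.98 and 2.24 CPM with the combination, 5.26, 4.99, 5.37 and 4.11 CPM with simvastatin and 4.86, 4.51, 4.78 and 4.84 CPM with DMSO. All 8 libraries with irinotecan lay below all 8 without it. The log2 fold change was -1.02 ± 0.14 for irinotecan (adjusted p = 1.07e-06) and -1.31 ± 0.14 for the combination (adjusted p = 2.42e-08). The other called semaphorins changed less. SEMA3F (0.35), SEMA6A (0.25) and SEMA6B (0.26) rose, and SEMA3A (-0.23) and SEMA3B (-0.30) fell, on the log2 scale with irinotecan. SEMA3C, the highest semaphorin, was called in no contrast, and SEMA3E, SEMA4B, SEMA4C, SEMA4F, SEMA4G, SEMA5A, SEMA6C and SEMA6D were not called either.

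**Figure D3:**
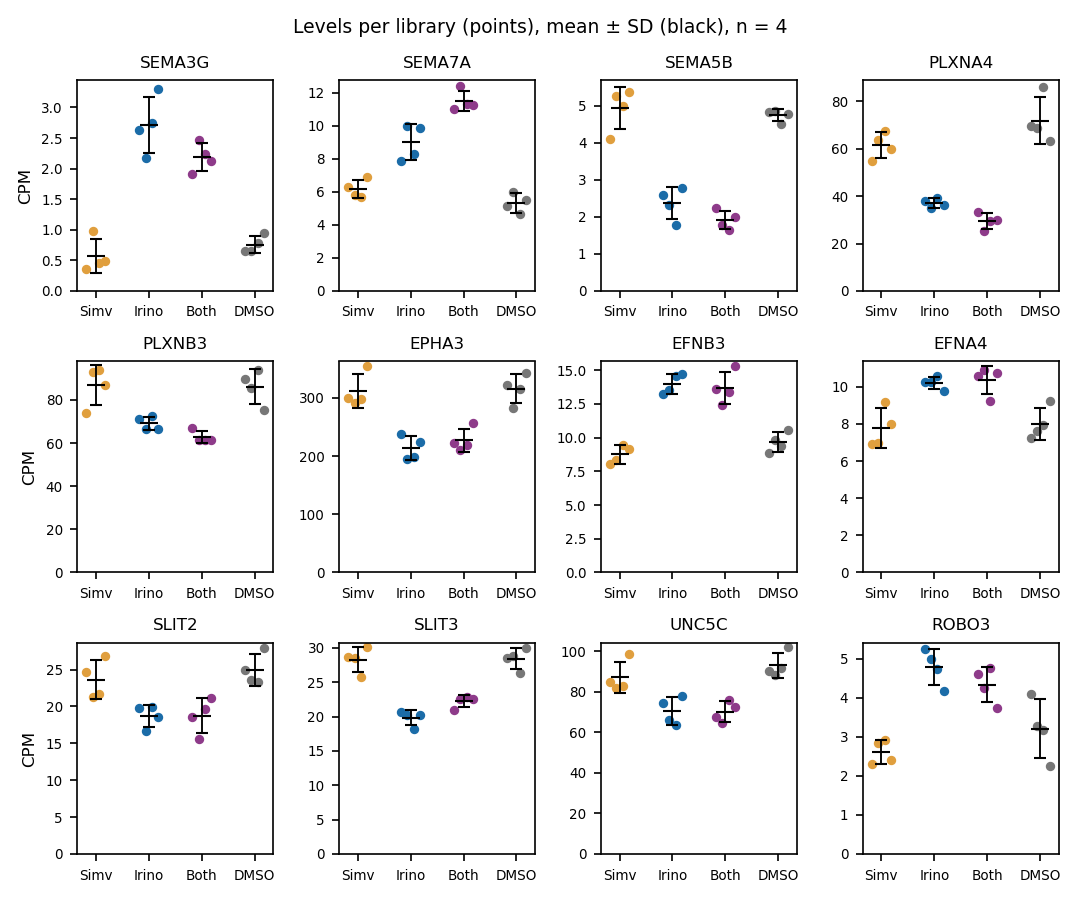
CPM in each library for 12 of the named members, with simvastatin, irinotecan and the combination left of DMSO; each coloured point is 1 library and the black marks are the group's mean ± SD. In SEMA3G and SEMA5B the irinotecan and combination libraries lie clear of the simvastatin and DMSO libraries, above them for SEMA3G and below them for SEMA5B.

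Of the 9 plexins, the semaphorin receptors, 3 rose and 3 fell with irinotecan, and none rose and 4 fell with the combination. PLXNA4, a receptor for class 3 and class 6 semaphorins (chr7:132123332-132648688, minus strand), had 34.8, 39.2, 36.2 and 38.0 CPM with irinotecan and 25.1, 29.6, 30.1 and 33.5 CPM with the combination. Simvastatin cultures had 63.5, 67.6, 60.1 and 54.7 CPM and DMSO cultures 68.6, 85.9, 63.4 and 69.5 CPM. No library with irinotecan reached any library without it. It fell by 0.95 ± 0.09 on the log2 scale with irinotecan (adjusted p = 1.36e-06) and by 1.28 ± 0.10 with the combination (adjusted p = 5.41e-08). Between the combination and irinotecan alone the difference was -0.33 (adjusted p = 0.0725), although their libraries did not overlap.

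PLXNB3, the receptor for SEMA5A (chrX:153764196-153779346, plus strand), averaged 69.1 ± 3.05 CPM with irinotecan, 62.9 ± 2.71 CPM with the combination, 86.8 ± 9.2 CPM with simvastatin and 86.2 ± 7.96 CPM with DMSO (SD, n = 4 each). Its log2 fold change was -0.32 ± 0.07 with irinotecan (adjusted p = 0.00143) and -0.46 ± 0.07 with the combination (adjusted p = 3.31e-05). In the annotation, 20.4% of its exon bases also belong to SRPK3 on the same strand, so its counts may hold reads of that gene. PLXNC1, the plexin that binds SEMA7A, had 8.21, 7.22, 7.85 and 8.88 CPM with irinotecan, 6.69, 7.41, 7.57 and 6.6 CPM with the combination, 7.04, 5.57, 5.47 and 5.97 CPM with simvastatin and 5.55, 6.63, 6.28 and 5.36 CPM with DMSO. Ligand and receptor thus both rose with irinotecan, PLXNC1 by 0.44 ± 0.10 (adjusted p = 0.00156). With the combination PLXNC1 did not pass (log2 fold change 0.25, adjusted p = 0.0658). PLXNB2 and PLXNA3 also rose with irinotecan, by 0.09 and 0.21 (the call of PLXNB2 was lost without irinotecan replicate 1, 3 or 4 or DMSO replicate 2, 3 or 4, with an adjusted p of 0.0612 to 0.0996), and PLXND1, the receptor for SEMA3E, fell by 0.22. PLXNB1, which binds SEMA4D, fell with the combination (-0.27, adjusted p = 0.0118).

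Of the 9 EPH receptors, 2 rose and 3 fell with irinotecan, and 4 rose and 4 fell with the combination. The 2 most abundant, EPHA2 and EPHA3, were both among those that fell. EPHA3 (chr3:89107524-89482134, plus strand) had 195, 199, 225 and 238 CPM with irinotecan, 210, 220, 256 and 222 CPM with the combination, 291, 298, 355 and 300 CPM with simvastatin and 283, 316, 343 and 323 CPM with DMSO. Again no library with irinotecan overlapped those without it. The log2 fold change was -0.56 ± 0.09 for irinotecan (adjusted p = 0.000222) and -0.48 ± 0.09 for the combination (adjusted p = 0.000777).

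EPHA2 had 330, 332, 328 and 307 CPM with irinotecan, 350, 324, 338 and 337 CPM with the combination, 367, 361, 372 and 371 CPM with simvastatin and 379, 347, 371 and 357 CPM with DMSO. The irinotecan libraries lay below DMSO, and the combination libraries overlapped it. Its change was small, -0.17 ± 0.04 with irinotecan (adjusted p = 0.000719) and -0.11 ± 0.04 with the combination (adjusted p = 0.0209). The call with the combination was lost without combination replicate 2 or DMSO replicate 1 or 3 (adjusted p = 0.0507 to 0.0856) and with scaling by library sizes alone (adjusted p = 0.256). EPHB4, the receptor of EFNB2, fell by 0.12 with irinotecan and by 0.21 with the combination. EPHA4 and EPHB2, which bind ephrins of both classes, rose with irinotecan, by 0.17 and 0.24. EPHA7 was rare and was higher with the combination, at 1.14, 1.5, 1.48 and 1.38 CPM against 1.01, 0.952, 0.711 and 0.71 CPM with DMSO (log2 fold change 0.70 ± 0.25, adjusted p = 0.0313). These EPHA7 values rest on 18 to 41 counts per library, and the call was lost without combination replicate 2, 3 or 4 or DMSO replicate 3 or 4 (adjusted p = 0.0554 to 0.0949).

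Of the 8 ephrins, 5 were higher and 1 lower with irinotecan, and 4 were higher and 1 lower with the combination. Of all genes, 12.4% rose with irinotecan and 15.1% with the combination. EFNB3, a transmembrane ephrin that acts as a midline barrier to axons in the mouse spinal cord (chr17:7705202-7711378, plus strand), had 13.5, 14.6, 14.7 and 13.2 CPM with irinotecan, 12.4, 13.4, 15.3 and 13.6 CPM with the combination, 8.33, 9.49, 9.19 and 8.02 CPM with simvastatin and 9.83, 9.36, 10.6 and 8.84 CPM with DMSO. All libraries with irinotecan lay above all libraries without it. It rose by 0.54 ± 0.08 with irinotecan (adjusted p = 4.98e-06) and by 0.51 ± 0.08 with the combination (adjusted p = 1.53e-05). EFNA2, a lipid-anchored ephrin, had 1.81, 1.93, 1.88 and 1.67 CPM with irinotecan, 1.98, 1.54, 1.55 and 1.51 CPM with the combination, 1.44, 1.24, 1.1 and 1.21 CPM with simvastatin and 1.04, 0.952, 1.11 and 0.678 CPM with DMSO. It rose by 0.96 ± 0.19 with irinotecan (adjusted p = 0.000336) and by 0.81 ± 0.20 with the combination (adjusted p = 0.00239).

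EFNA1, EFNA3 and EFNA4 lie side by side on chromosome 1, with 39.9 kb between EFNA1 and EFNA3 and 9.3 kb between EFNA3 and EFNA4. EFNA4 averaged 10.2 CPM with irinotecan, 10.4 CPM with the combination, 7.76 CPM with simvastatin and 8.01 CPM with DMSO, and rose by 0.35 ± 0.09 with irinotecan (adjusted p = 0.00507). EFNA1 rose by 0.24 with irinotecan, while EFNA3 was not called there. A readthrough gene, AL691442.1, shares 44.7% of the exon bases of EFNA3 and 15.0% of those of EFNA4, so their counts may hold reads of it. EFNB1 also rose with irinotecan (0.33). EFNB2, the most abundant ephrin, was the one that fell: it had 155, 158, 164 and 158 CPM with irinotecan, 162, 159, 167 and 160 CPM with the combination, 177, 172, 185 and 178 CPM with simvastatin and 187, 175, 193 and 186 CPM with DMSO. The log2 fold change was -0.23 ± 0.04 with irinotecan (adjusted p = 1.7e-05) and -0.20 ± 0.04 with the combination (adjusted p = 0.000109). An annotated antisense gene covers 26.2% of its exon bases, and the strand setting of the counting is not known.

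Both slits fell with irinotecan and with the combination. SLIT3 (chr5:168661733-169301129, minus strand) had 20.2, 18.2, 20.3 and 20.6 CPM with irinotecan, 22.6, 22.9, 22.5 and 20.9 CPM with the combination, 28.5, 25.8, 30.1 and 28.7 CPM with simvastatin and 28.9, 26.3, 30.0 and 28.6 CPM with DMSO. The log2 fold change was -0.52 ± 0.06 with irinotecan (adjusted p = 5.53e-08) and -0.36 ± 0.06 with the combination (adjusted p = 2.78e-05). SLIT2 (chr4:20253260-20620561, plus strand) had 16.6, 19.9, 18.5 and 19.8 CPM with irinotecan, 15.6, 19.7, 21.2 and 18.5 CPM with the combination, 21.3, 21.7, 26.8 and 24.7 CPM with simvastatin and 23.6, 23.4, 28.0 and 25.0 CPM with DMSO. Its libraries with irinotecan, alone or combined, lay below every DMSO library, and it fell by 0.42 ± 0.09 with irinotecan (adjusted p = 0.000805) and by 0.41 ± 0.09 with the combination (adjusted p = 0.000831).

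Their receptor ROBO1 was not called. It had 75.7, 77.4, 81.4 and 85.9 CPM with irinotecan, 78.7, 84.7, 84.5 and 82.4 CPM with the combination, 77.5, 78.3, 91.1 and 78.3 CPM with simvastatin and 81.6, 84.9, 93.1 and 90.3 CPM with DMSO, and the groups overlapped. The difference for irinotecan was -0.13 ± 0.05 (adjusted p = 0.0701). ROBO3, a divergent family member of commissural axons that in mammals does not bind slits, had 4.99, 4.74, 4.17 and 5.26 CPM with irinotecan, 4.26, 4.77, 3.75 and 4.6 CPM with the combination, 2.84, 2.93, 2.41 and 2.3 CPM with simvastatin and 3.28, 3.19, 2.25 and 4.1 CPM with DMSO. It rose by 0.57 ± 0.14 with irinotecan (adjusted p = 0.00312) and by 0.42 ± 0.14 with the combination (adjusted p = 0.0265), where the call was lost without combination replicate 2 or 4 or DMSO replicate 2 or 3 (adjusted p = 0.0515 to 0.12). The combination libraries overlapped DMSO, and the irinotecan libraries did not.

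Both abundant netrins fell. NTN1, the netrin that guides commissural axons, had 69.1, 70.2, 70.6 and 69.6 CPM with irinotecan, 76.2, 74.2, 68.3 and 71.4 CPM with the combination, 82.7, 78.3, 94.6 and 87.6 CPM with simvastatin and 88.1, 83.5, 86.2 and 82.2 CPM with DMSO. It fell by 0.28 ± 0.05 with irinotecan (adjusted p = 3.18e-05) and by 0.23 ± 0.05 with the combination (adjusted p = 0.000421). NTN4, a netrin of basement membranes that binds laminin, had 40.4, 42.3, 43.0 and 45.0 CPM with irinotecan, 39.5, 36.8, 41.2 and 37.2 CPM with the combination, 44.6, 43.9, 46.5 and 44.2 CPM with simvastatin and 49.2, 52.7, 54.3 and 51.7 CPM with DMSO. It was lower than DMSO in every treated library, by 0.21 ± 0.05 with simvastatin (adjusted p = 0.00437), 0.28 ± 0.05 with irinotecan (adjusted p = 3.2e-05) and 0.42 ± 0.05 with the combination (adjusted p = 4.96e-08) on the log2 scale. NTN4, SEMA3A and EPHB4 were the 3 members called lower in all 3 comparisons with DMSO.

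UNC5C, a repulsive netrin receptor with a death domain (chr4:95162504-95549206, minus strand), had 65.9, 63.4, 77.9 and 74.7 CPM with irinotecan, 64.7, 76.1, 72.5 and 67.6 CPM with the combination, 82.1, 82.9, 98.5 and 84.9 CPM with simvastatin and 88.3, 91.6, 102 and 90.3 CPM with DMSO. All libraries with irinotecan lay below all those without it, and the log2 fold change was -0.40 ± 0.07 with irinotecan (adjusted p = 0.000328) and -0.41 ± 0.07 with the combination (adjusted p = 0.00028). The other two UNC5 receptors, UNC5B and UNC5D, rose with the combination, by 0.27 and 0.30 on the log2 scale. With irinotecan alone their values were 0.17 and 0.15, which did not pass the test, and the difference between the combination and irinotecan was not called for either. NTN5, a rare netrin, had 1.45, 1.42, 1.6 and 1.95 CPM with irinotecan, 0.76, 1.02, 1.12 and 0.774 CPM with the combination, 1.14, 1.36, 0.792 and 1.29 CPM with simvastatin and 1.12, 0.828, 1.14 and 0.872 CPM with DMSO, from 19 to 49 counts per library. It rose with irinotecan (0.69 ± 0.22, adjusted p = 0.0189), and the combination was lower than irinotecan alone by 0.79 ± 0.22 (adjusted p = 0.0268). The call for irinotecan was lost without irinotecan replicate 4 or DMSO replicate 2 or 4 (adjusted p = 0.0549 to 0.0743), and that between the combination and irinotecan without combination replicate 1 or 4 or irinotecan replicate 3 or 4 (adjusted p = 0.0572 to 0.0953). In a fit of the 12 numbered libraries alone both calls were lost (adjusted p = 0.176 and 0.204), and DESeq2 gave no adjusted p for the second.

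By role, 11 of 31 ligands rose and 8 fell with irinotecan, and 6 of 23 receptors rose and 7 fell, while 12.4% of all genes rose and 11.7% fell. Simvastatin alone moved few members. EFNA3 rose, with 2.08, 3.01, 2.34 and 2.9 CPM against 2.09, 1.7, 1.34 and 1.26 CPM with DMSO (log2 fold change 0.69 ± 0.20, adjusted p = 0.0287), although these libraries overlapped and the call was lost without simvastatin replicate 2 or 4 or DMSO replicate 3 or 4 (adjusted p = 0.0879 to 0.122). SEMA3A, SEMA4D, EPHB2, EPHB4 and NTN4 fell, by 0.15 to 0.21, with libraries clear of DMSO only for EPHB4 and NTN4. This count rests on single libraries: it was 2 without simvastatin replicate 4, and 3 without simvastatin replicate 1 or 2 or without DMSO replicate 3 or 4. Between the combination and irinotecan alone, SEMA7A was higher and SEMA4D and NTN5 were lower, 5.56% of members against 5.94% of all genes (4.45% higher and 1.5% lower). That count was 1 without irinotecan replicate 2 or 3 and 0 without combination replicate 1.

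The interaction contrast asks whether the combination departs from the sum of both single-drug effects on the log2 scale. By edgeR it called 0 of the 54 members and 0.012% of all genes, and DESeq2 also called 0 members. At an unadjusted p under 0.05 there were 6 members, and the lowest adjusted p was 0.735. NTN5 had an interaction of -0.99 ± 0.32 (adjusted p = 0.744), which did not pass the test.

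Irinotecan's effect could be read in separate libraries, since irinotecan against DMSO and the combination against simvastatin share none. In the second of these comparisons 28 members were called, 15 higher and 13 lower (51.9%, against 25.6% of all genes, 13.9% higher and 11.7% lower). The signs of the fold changes matched in 47 of 54 members, 87.0%, against 76.3% of all genes tested. In both comparisons 25 members were called, 78.1% of the 32 and 89.3% of the 28, all in the same direction. For all genes these shares were 68.4% and 64.5%, and all 2747 genes called in both also had the same direction. Those called higher in both were SEMA3F, SEMA3G, SEMA6A, SEMA6B, SEMA7A, PLXNB2, EPHA4, EPHB2, EFNA1, EFNA4, EFNB1, EFNB3 and ROBO3. Those called lower in both were SEMA3B, SEMA5B, PLXNA4, PLXNB3, EPHA2, EPHA3, EFNB2, SLIT2, SLIT3, NTN1, NTN4 and UNC5C. In simvastatin against DMSO and the combination against irinotecan, which also share no libraries, 34 of 54 signs matched, 63.0% against 63.7% of all genes, and SEMA4D was the 1 member called in both.

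**Figure D4:**
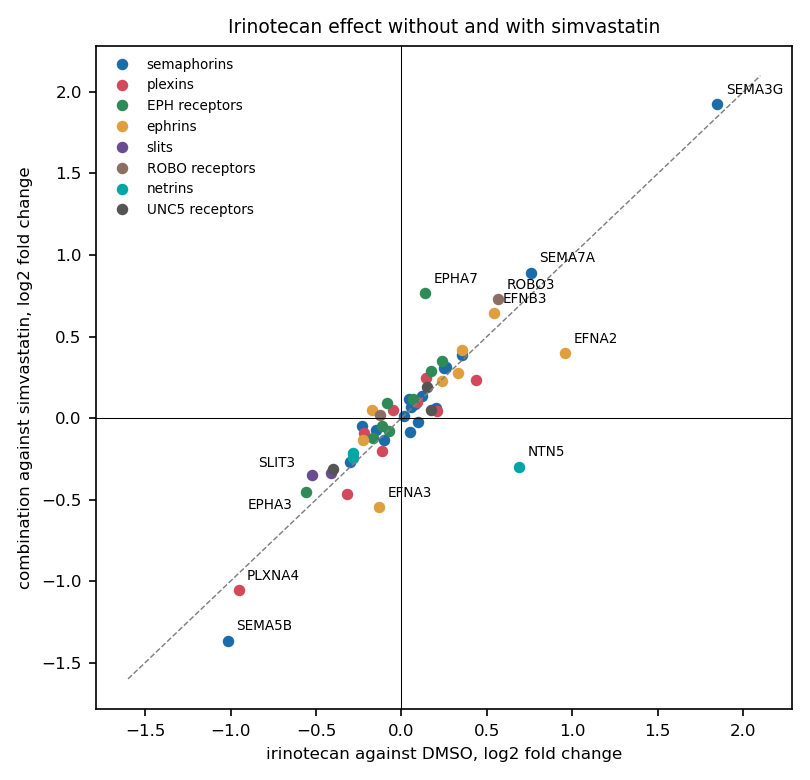
Log2 fold change of each member for irinotecan against DMSO (horizontal) and for the combination against simvastatin (vertical), which use different libraries; colours give the family and the dashed line marks equal changes. Most points lie near the line, from SEMA5B and PLXNA4 at the lower left to SEMA3G at the upper right, while NTN5, EFNA2, EPHA7 and EFNA3 lie off it.

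The genomic span of the genes was set beside their change with irinotecan, as a description. The 17 members that rose had a median genomic span of 17.2 kb, the 15 that fell 133.3 kb and the 22 that were not called 158.4 kb. Of the 12 members spanning over 300 kb, none rose and 6 fell with irinotecan: SEMA3A, PLXNA4, EPHA3, SLIT2, SLIT3 and UNC5C. Among all 651 genes of that length, 7.68% rose and 30.4% fell, so more of the long genes fell than rose there too. ROBO1, the longest member at 1170.6 kb, was not called. Of the 16 members spanning 10 to 30 kb, 8 rose and 2 fell, against 15.6% and 10.1% of all genes of that length. Of the 13 members spanning 100 to 300 kb, 4 rose and 3 fell, against 12.4% and 16.3%. Of the 8 spanning 30 to 100 kb, 2 rose and 3 fell, against 14.9% and 11.6%. Of the 5 under 10 kb, 3 rose and 1 fell, against 7.63% and 8.39%. With the combination, 2 of the members over 300 kb rose and 6 fell, against 9.98% and 26.4% of all such genes. Of those spanning 10 to 30 kb, 6 rose and 4 fell with the combination, against 17.7% and 12.7%.

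**Figure D5:**
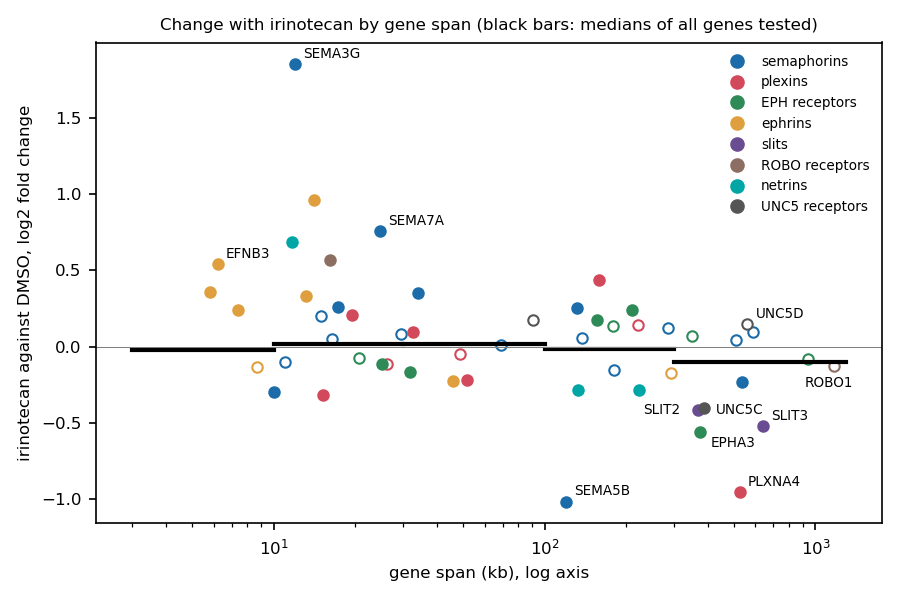
Log2 fold change of each member with irinotecan against DMSO, plotted against the genomic span of the gene in kb on a log axis; filled points were called, and black bars are medians of all genes tested in each band of span. No called member over 300 kb lies above 0, and the short genes SEMA3G, EFNB3 and SEMA7A lie highest among those labelled.

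Co-receptors and intracellular partners of the 4 systems were listed separately, 110 genes of which 98 were tested. With irinotecan 22 rose and 21 fell (43.9%, against 24.1% of all genes), with the combination 31 rose and 21 fell (53.1%, against 28.1%), and with simvastatin 4 rose and 6 fell (10.2%, against 6%). The split of directions depended on the scaling: by library sizes alone, 35 rose and 13 fell with irinotecan and 45 rose and 13 fell with the combination. Of the semaphorin and plexin partners, 6 of 27 rose and 5 fell with irinotecan. NRP2, the neuropilin that serves SEMA3F and SEMA3G, fell by 0.29 ± 0.04 (adjusted p = 1.05e-06), whereas both of those ligands rose. MICAL2, a relative of the plexin-bound actin oxidase MICAL1, rose by 0.37 ± 0.06 (adjusted p = 3.35e-05).

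Of the EPH and ephrin partners, 6 of 30 rose and 5 fell with irinotecan. VAV2, a guanine nucleotide exchange factor recruited by EPH receptors, fell by 0.35 ± 0.04 (adjusted p = 2.08e-08), and RGS3, which binds ephrin-B tails, fell by 0.32 ± 0.04 (adjusted p = 6.19e-07). The tyrosine kinases SRC and ABL2 rose, by 0.41 ± 0.06 and 0.22 ± 0.05. Of the slit and ROBO partners, 6 of 26 rose and 4 fell. GPC1 and SDC3, heparan sulphate proteoglycans, rose by 0.21 ± 0.04 and 0.25 ± 0.04, and PAK1, a protein kinase, by 0.28 ± 0.05. Of the netrin partners, 5 of 22 rose and 8 fell. DCC, the attractive netrin receptor, averaged 2.01 ± 0.391 CPM with irinotecan, 2.00 ± 0.398 CPM with the combination, 2.83 ± 0.783 CPM with simvastatin and 3.20 ± 0.709 CPM with DMSO (SD, n = 4 each), and it fell by 0.67 ± 0.20 with irinotecan (adjusted p = 0.0121) and by 0.68 ± 0.20 with the combination (adjusted p = 0.011). DRAXIN, a secreted protein that binds netrin-1 and DCC, rose by 0.77 ± 0.10 with irinotecan (adjusted p = 1.35e-06) and by 0.84 ± 0.10 with the combination (adjusted p = 2.93e-07). ABLIM1 and ABLIM3, actin-binding proteins, and DAPK1, a death-associated kinase that binds UNC5B, rose by 0.27, 0.42 and 0.38 with irinotecan.

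Markers of the labelled cell type moved with irinotecan as well. All 8 glioblastoma and astroglial markers were above 0.5 CPM in every group, and their summed level was 5600 to 5751 CPM with irinotecan, 5532 to 5695 CPM with the combination, 7260 to 7385 CPM with simvastatin and 7506 to 7781 CPM with DMSO. GFAP, the astrocyte filament, averaged 94.7 ± 3.19 CPM with irinotecan, 92.1 ± 3.92 CPM with the combination, 178 ± 1.66 CPM with simvastatin and 203 ± 10.4 CPM with DMSO, and VIM, vimentin, 1482 ± 62.8, 1517 ± 60.6, 1993 ± 111 and 1985 ± 80.4 CPM in the same groups (SD, n = 4 each). The sum came mainly from CD44, VIM and NES. The irinotecan libraries lay below DMSO for each of these markers except S100B. S100B averaged 5.04 CPM with irinotecan and 4.74 CPM with DMSO, and these libraries overlapped. The part of these shifts in the changes above was not tested. Of the other lists, 4 of 8 epithelial markers, EPCAM, CDH1, ESRP1 and GRHL2, were under 0.5 CPM, and the list summed to 574 to 636 CPM with irinotecan, 509 to 578 CPM with the combination, 375 to 407 CPM with simvastatin and 412 to 470 CPM with DMSO. Those 4 genes define epithelium, and the sum came from keratins and CLDN4. ESRP1 averaged 0.33 CPM with irinotecan, 0.258 CPM with the combination, 0.233 CPM with simvastatin and 0.0207 CPM with DMSO. No treated library of ESRP1 overlapped DMSO, whereas EPCAM, CDH1 and GRHL2 overlapped it with irinotecan. Neuronal markers summed to 121 to 136 CPM with irinotecan, 123 to 130 CPM with the combination, 137 to 149 CPM with simvastatin and 129 to 147 CPM with DMSO. Of these, STMN2, DCX and ELAVL4 had group means of at most 0.0264 CPM. The sum came mainly from GAD1, MAP2, SYT1 and GAP43. They averaged 51.7, 31.5, 18.1 and 14.0 CPM with irinotecan and 56.5, 43.2, 14.3 and 16.0 CPM with DMSO. The irinotecan libraries lay above DMSO for SYT1, below it for MAP2 and GAP43, and overlapped it for GAD1. Oligodendrocyte and leukocyte markers summed to less than 3 CPM in every library.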

How the data were processed

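The deposited table holds counts, which the authors made as whole numbers of reads per Ensembl gene and did not normalise. Per the submitters' processing notes, FastQC, STAR 2.7.1, GRCh38 and DESeq2 were used; which annotation, counter and strand setting served is not given in the sources used here. The series, its groups and the 16 libraries are described above. The library without a number in its title was called replicate 4 of its group. No pair of libraries of a group agreed within sampling noise (chi-squared per degree of freedom 2.58 to 14.7).

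The analysis used edgeR 4.0.16 under R 4.3.3: filterByExpr (minimum count 10, minimum total 15), TMM factors, a robust quasi-likelihood fit of 4 group means to all 16 libraries, and 6 contrasts, each adjusted over 16647 genes. Errors of log2 fold changes are SE from the change and its F statistic. The fit was also run on counts simulated from its own levels and spread. This checks the code and cannot show that the model suits these libraries. Coordinates, spans and exon overlaps came from GENCODE 29 on GRCh38; promoter sequences came from RefSeq. Of the members, 18 share exon bases with another annotated gene, 5 of them at least 10%.

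Members, partner lists and marker lists were chosen with earlier results of these data known. Named in full were members called with an absolute log2 fold change of at least 0.4, the highest member of each family in DMSO, those beside the 0.5 CPM threshold, up to 4 partners per list with the smallest p, GFAP and VIM, apart from a few partners that are not reported here; further members, DCC and the markers in the text were named after their values were seen. Alternatives were DESeq2 1.42.0 and its size factors, library sizes alone, no filter on low counts, an adjusted p under 0.01, a minimum log2 fold change of 0.25, the 12 numbered libraries with and without a replicate block, fits of only the groups compared, and removal of each library in turn.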

Additional observations from a re-analysis of the deposited data

Results flagged for a closer look

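In 6 of the 100 groups of 4 libraries checked for named members, 1 library stood far from the others relative to the group's range, and chance flags about 1 in 20 groups. EPHA2 had 307 CPM in irinotecan replicate 4, against 328 to 332 CPM in the other irinotecan libraries. EPHA3 had 355 CPM in simvastatin replicate 3, against 291 to 300 CPM, and ROBO1 had 91.1 CPM in the same library, against 77.5 to 78.3 CPM. SEMA3C had 192 CPM in combination replicate 3, against 171 to 174 CPM. PLXNB3 had 66.9 CPM in combination replicate 4, against 61.4 to 61.5 CPM. EFNA2 had 1.98 CPM in combination replicate 1, against 1.51 to 1.55 CPM. None of the causes was tested.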

How the results depend on the processing

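Over 25 alternatives, 61 called values of the named members gave 1524 values. Of these, 1431 kept their direction and call, 93 lost the call and 0 reversed. The stricter thresholds reuse the same fit and cannot reverse a sign. Removing a library of a group not compared can change a value only through the shared filter, scaling and spread. The kept share is therefore no count of independent checks. Scaling by library sizes alone moved the median log2 fold change of all genes by at most 0.0751, and more calls were then higher: 21 members rose and 14 fell with irinotecan, and 35 and 13 partners; 17 and 15 members and 45 and 13 partners with the combination; 17 and 10 members and 40 and 9 partners for the combination against simvastatin. Where a count moved by over 1.5 times the cause was not tested, unless fewer libraries or a stricter threshold made it. Without the filter on low counts, 8 members were called between the combination and irinotecan (2.78% of all genes), and 6 when those groups were fitted alone (8.16%). At an adjusted p under 0.01, simvastatin called 2 members and 5 partners (3.35% of all genes), and the combination against irinotecan called 0 members (3.18%). With a minimum log2 fold change of 0.25, simvastatin called 1 member and 2 partners (2.78% of all genes), and irinotecan 21 members and 22 partners (13.4%). At that minimum the combination called 27 partners (15.8%), the combination against irinotecan 4 partners (2.51%) and the combination against simvastatin 21 partners (14.1%). Leaving out each library gave 2 to 8 members and 5 to 17 partners for simvastatin, 28 to 33 and 39 to 44 for irinotecan, 26 to 31 and 42 to 52 for the combination, 0 to 4 and 10 to 14 for the combination against irinotecan, and 25 to 29 and 38 to 42 for the combination against simvastatin. The partner count for simvastatin was 5 without simvastatin replicate 4, 6 without simvastatin replicate 1 and 17 without simvastatin replicate 3. Per kb of coding transcript, the DMSO levels were 91.8 CPM for EPHA2, 13.0 for ROBO1, 9.43 for UNC5C, 14.3 for NTN1, 37.1 for PLXNB2, 34.1 for SEMA3C and 4.87 for SLIT2. A threshold of 1 CPM would keep 51 members.

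Libraries that share a replicate number tended to deviate together, but weakly. Over 18 pairs the correlation of their deviations was -0.0646 to 0.2, with a median of 0.0563 and 4 pairs over 0.1. Of 12 libraries, 8 correlated best with their own number. The labels do not say that a number marks a shared culture or day, so the blocked counts are no paired result. With the replicate number as a block in the 12 numbered libraries, 10 members and 24 partners were called between the combination and irinotecan (12% of all genes), 3 members and 3 partners in the interaction (1.13%) and 16 partners with simvastatin (6.81%). The same 12 libraries without the block gave 2 members and 5 partners with simvastatin (3.06% of all genes) and 0 members between the combination and irinotecan (4.22%). In the interaction, 0.00597% of all genes were called without the block. EFNA3 with simvastatin, PLXNB2 and NTN5 with irinotecan, EPHA7 with the combination, NTN5 between the combination and irinotecan and EFNA3 between the combination and simvastatin lost their calls in both of these fits. Depth limits the genes under about 2 CPM, such as SEMA3G, EFNA2, EPHA7 and NTN5, which rest on 9 to 95 counts per library.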
